A study of Mus musculus with 16 samples.

Results

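Foxp3 regulatory T cells were examined among the immune cells of subcutaneous B16 mouse melanomas after treatment with an anti-CD40 antibody. Barcodes counted as members when they held at least 200 genes and at most 10% mitochondrial UMIs (unique molecular identifiers, each a counted transcript molecule), at least 1 UMI of Foxp3, at least 1 of the CD3 genes Cd3d, Cd3e, Cd3g or of Trac, none of Cd8a or Cd8b1, and at most 5 of the macrophage genes C1qa, C1qb and C1qc. Members were thus chosen by measured Foxp3, CD3, Cd8 and C1q UMIs, so these genes are described and not tested. There were 646 members among 99357 barcodes that passed the gene and mitochondrial limits (kept barcodes), which is 0.650% of them and 6.38% of the 10118 T cells without Cd8 UMIs that passed the same CD3 and C1q limits. All mice were C57BL/6J and carried 1000000 implanted cells of the B16 line Bro4.1, either control cells or cells lacking B2m, the gene of the MHC class I light chain. Each mouse was injected intraperitoneally with 100 µg of anti-CD40, an agonist, or of rat IgG2a isotype control, on days 6, 9 and 12, and its tumour was harvested on day 14. The 4 groups are given throughout in 1 order, control tumours with isotype (control isotype) and with anti-CD40 (control CD40), then B2m-null tumours with isotype (B2m-null isotype) and with anti-CD40 (B2m-null CD40). The genotype names the tumour cells here, following the design text, although the sample labels attach it to the mouse. The members' own B2m transcript level, which bears on the mouse reading, is not reported here. Cells of each mouse were enriched on CD45 beads, stained with a hashtag antibody, and pooled with other mice of the group. Each pool was loaded on 1 lane, or on 2 in control CD40.

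Regulatory T cells are CD4 T cells that hold back other immune cells, and the transcription factor Foxp3 fixes their identity. They take up IL-2 through the high-affinity receptor chain Il2ra, strip costimulatory ligands from dendritic cells with Ctla4, and many express the Ikaros-family factor Ikzf2 (Helios). In tumours they are often activated and dividing, and the ratio of CD8 T cells to regulatory T cells is a common summary of the balance between effector and suppressor cells. CD40 is a TNF receptor family member of dendritic cells, macrophages and B cells, and its ligand Cd40lg is carried mainly by activated conventional CD4 T cells.

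The 8 lanes held between 45985739 and 99264875 UMIs each, over 12894 to 17666 barcodes. Every group had 2 pools except control CD40, whose 2 lanes are technical replicates and were joined as 1 pool. Hashtags separated 16 mice, 5, 2, 5 and 4 by group. The share of barcodes given a mouse ran from 25.9%, in replicate 1 of B2m-null isotype, to 90.7%. Any pair of lanes shared 41 to 92 cell barcode sequences. Hashtag signals placed 538 members in a mouse, marked 42 as doublets of mice and left 66 unassigned.

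Most members passed on 1 Foxp3 transcript: 421 held 1 Foxp3 UMI, 152 held 2, and 73 held 3 or more, up to 8. C1q UMIs were absent from 459 members. Just inside the C1q limit, 13 members held 4 or 5 C1q UMIs, and just outside it 35 barcodes that otherwise met the rule held 6 to 10. A further 91 Foxp3-positive barcodes lacked all CD3 and Trac UMIs, and 297 had a Cd8 UMI. The lanes contributed 144 and 142 members in control isotype, 22 and 19 in control CD40, 86 and 149 in B2m-null isotype and 29 and 55 in B2m-null CD40. Members were shallower after CD40, with medians of 4751.5 UMIs and 2028 genes in control isotype, 1551 and 904 in control CD40, 5300 and 2252 in B2m-null isotype, and 2413.5 and 1219.5 in B2m-null CD40.

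The label was checked on the 3 marker genes that the gate did not use. Ikzf2 was detected in 93.8% of members, Ctla4 in 89.5% and Il2ra in 59.9%. At least 1 of the 3 was present in 98.8% of members and at least 2 in 90.1%. In macrophages, which should lack these genes, the shares were 3.8%, 1.7% and 0.85%. Foxp3 itself had a UMI in 0.117% to 0.194% of macrophages by group, at median depths of 4405.5 to 6415 UMIs. CD8 T cells had a Foxp3 UMI in 3.48% of control isotype, 0.938% of control CD40, 4.31% of B2m-null isotype and 1.79% of B2m-null CD40 cells. Each of the 3 markers was detected more often in members than in macrophages or the other T cells, at unequal depths. None was confined to members, and the name was kept.

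Many members also held transcripts of another cell. UMIs of myeloid, B, NK, dendritic cell, melanoma, neutrophil and fibroblast markers were summed per member, and 323 of the 646 had 10 or more. These barcodes made up 53.1% of members in control isotype and 62.1% in B2m-null isotype, against 14.6% in control CD40 and 22.6% in B2m-null CD40. They held a median of 59 such UMIs and 63 MHC class II UMIs, against 3 and 1 in the other 323 members. Their median depth was 6535 total UMIs against 2191 in the rest, and the limit was not scaled to depth. Hashtag doublets made up 10.8% of them and 2.17% of the rest. Ikzf2 was detected in 93.8% of both sets. All 10 myeloid markers had UMIs in every group, and their summed level ranged over mice from 5169 to 9541 CPM (counts scaled to 1000000 per library) in control isotype and 3163 to 9676 in B2m-null isotype, but 1867 to 2397 in control CD40 and 1328 to 2756 in B2m-null CD40. All 6 dendritic cell markers were at 0 in control CD40, and summed to 405 CPM in control isotype, 549 in B2m-null isotype and 119 in B2m-null CD40. Single barcodes held 917 of the 919 fibroblast UMIs, 1081 of the 1231 B cell UMIs and 240 of the 242 melanoma UMIs of B2m-null CD40. One other held 97 of the 98 neutrophil UMIs of control CD40. Other T cells showed the same split by treatment: 42.3%, 15.9%, 53.4% and 11.1% of Foxp3-negative CD4 T cells, and 37.0%, 13.2%, 38.3% and 16.8% of CD8 T cells, held 10 or more by group. The main results are therefore also given for members with under 10 other-cell UMIs, called members with few other-cell UMIs, a limit chosen after the data had been seen. These numbered 134, 35, 89 and 65 in the same order of groups. They were also the shallower members, and the part of depth in the split by treatment was not tested.

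**Figure D1:**
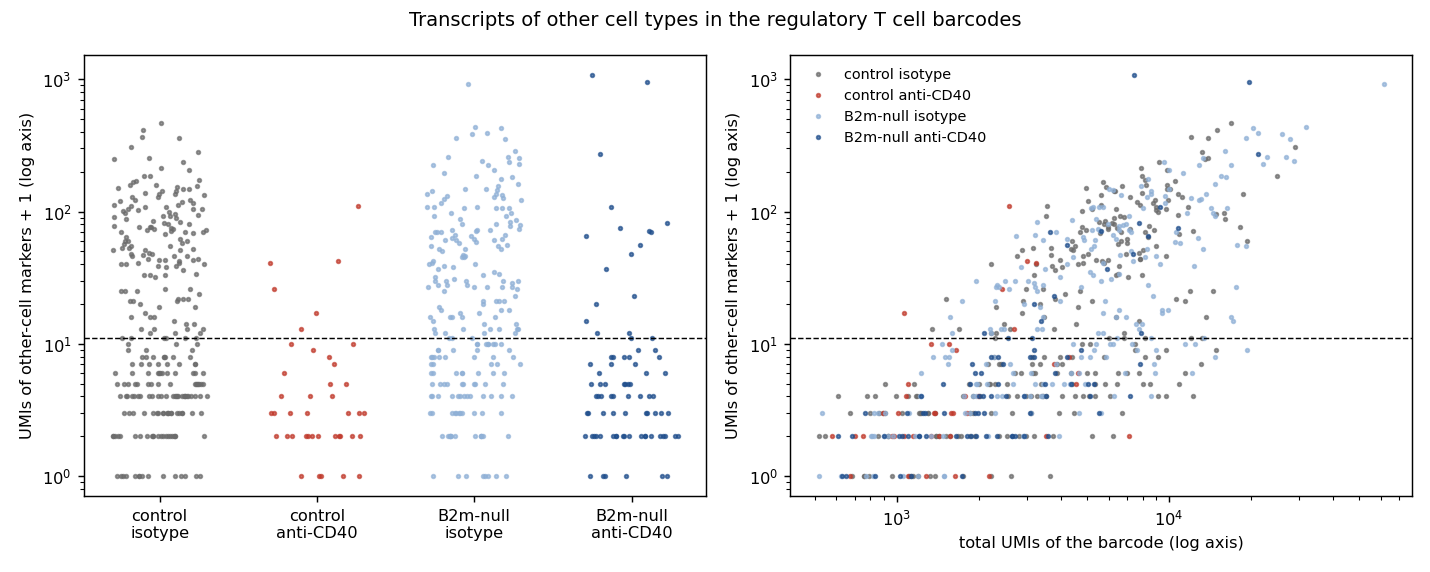
Summed UMIs of other-cell markers plus 1 for each member, by group and against the member's total UMIs, on log axes, with a dashed line at 10 UMIs. Isotype members spread far above the line, with 53.1% and 62.1% at or over 10 UMIs, whereas 14.6% and 22.6% of CD40 members do.

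Regulatory T cells were a smaller share of the tumour's barcodes in every CD40 mouse than in any isotype mouse of the same tumour type. Their share of a mouse's kept barcodes was 1.04%, 1.12%, 0.944%, 1.35% and 1.52% in the 5 control isotype mice and 0.219% and 0.114% in the 2 control CD40 mice. B2m-null isotype mice had 1.59%, 1.02%, 0.739%, 1.76% and 1.07%, and B2m-null CD40 mice 0.551%, 0.157%, 0.495% and 0.466%. The groups did not overlap in either tumour type. In B2m-null tumours this rests on small counts. The lowest isotype mouse, at 0.739%, held 3 members among 406 kept barcodes (95% exact binomial interval 0.153% to 2.14%). The highest CD40 mouse, at 0.551%, held 16 members (0.315% to 0.894%). The means were 1.20% ± 0.238 (SD, n = 5) against 0.167% ± 0.0745 (n = 2) in control tumours (two-sided exact permutation test, p = 0.0952, the smallest that 2 against 5 mice allow, adjusted p = 0.179). In B2m-null tumours they were 1.23% ± 0.423 (n = 5) against 0.417% ± 0.177 (n = 4), with an exact permutation p of 0.0159, also the smallest possible, and an adjusted p of 0.0595 over 15 share tests. Neither difference passed the adjusted threshold of 0.05. Fewer regulatory T cells and more of other cells cannot be told apart in a share.

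Set against other T cells, members were scarcer too. Of T cells without Cd8 UMIs, members made up 8.68%, 10.1%, 10.1%, 17.2% and 13.7% in control isotype mice and 1.42% and 0.870% in control CD40 mice. In B2m-null tumours they made up 25.6%, 10.9%, 16.7%, 15.025% and 16.8% under isotype and 7.34%, 2.69%, 3.80% and 3.93% under CD40. Again the groups did not overlap, with means of 11.9% ± 3.44 (n = 5) against 1.15% ± 0.391 (n = 2) and 17.0% ± 5.36 (n = 5) against 4.44% ± 2.01 (n = 4), and the same exact permutation p-values of 0.0952 and 0.0159. CD8 T cells per regulatory T cell numbered 15.9, 6.06, 8.05, 5.54 and 4.98 in control isotype mice, 123 and 282 in control CD40, 2.16, 2.14, 5.33, 5.31 and 2.44 in B2m-null isotype, and 15.75, 143, 71.4 and 60.4 in B2m-null CD40. On the log2 scale the mean ratio went from 2.86 ± 0.669 (SD) to 7.50 ± 0.855 in control tumours and from 1.61 ± 0.654 to 5.74 ± 1.30 in B2m-null tumours, with no overlap in either, the same exact p-values and adjusted p-values of 0.179 and 0.0595. B2m-null CD40 pool 1 mouse 1, with 16 members, had the lowest ratio of the CD40 mice, 15.75, close to the highest isotype mouse, at 15.9 in control tumours.

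**Figure D2:**
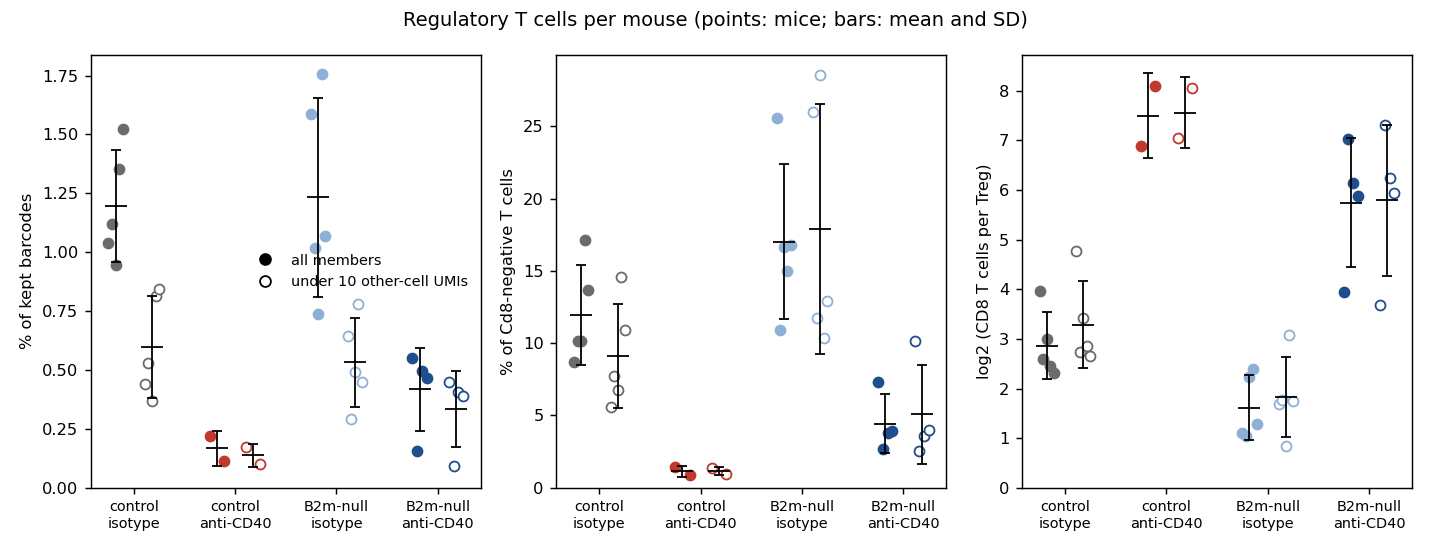
Each mouse's members as a percentage of kept barcodes and of T cells without Cd8 UMIs, and its CD8 T cells per member (log2), for all members (filled) and for members with few other-cell UMIs (open), with group means and SD. CD40 mice lie below isotype mice of the same tumour type for all members in the first 2 measures and above them in the ratio.

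The differences in the share of kept barcodes were smaller among members with few other-cell UMIs. Counting only T cells with few other-cell UMIs, the share of kept barcodes went from 0.599% ± 0.217 (SD, n = 5) to 0.137% ± 0.0493 (n = 2) in control tumours, still without overlap. In B2m-null tumours it was 0.532% ± 0.187 (n = 5) and 0.334% ± 0.162 (n = 4), the mice overlapped, and the exact permutation p was 0.175. Thinning left out barcodes under 1000 UMIs, cut the others to 1000 and applied the rule again. Barcodes that lost their Cd8 or surplus C1q UMIs could thus enter, and control CD40 pool 1 mouse 2 went from 20 members to 25. The B2m-null groups then also overlapped, at 0.373% and 0.291% (exact permutation p = 0.603). The control groups, at 0.482% and 0.135%, did not. The share of T cells without Cd8 UMIs did not overlap in either tumour type with few other-cell UMIs, at 9.11% against 1.17% and 17.9% against 5.07%. Nor did the log2 CD8 ratio, at 3.29 against 7.55 and 1.83 against 5.80. With barcodes thinned, both measures kept the control groups apart but not the B2m-null groups. The B2m-null means were then 5.43% and 2.33% (exact permutation p = 0.270), and log2 ratios of 2.31 and 5.85 (exact permutation p = 0.0317, adjusted p = 0.357), where the highest isotype mouse, at 3.70 with 0 members left, lay above the lowest CD40 mouse, at 3.53. By pool, with every kept barcode counted, members were 0.920% and 1.33% in control isotype, 0.155% in control CD40, 0.708% and 1.26% in B2m-null isotype and 0.271% and 0.461% in B2m-null CD40.

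None of the genotype differences passed the adjusted threshold. Under isotype, the share of kept barcodes differed by 0.0368 percentage points (exact permutation p = 0.849), and the share of T cells without Cd8 UMIs was 5.06 points higher in B2m-null tumours (exact permutation p = 0.0873), with overlap in both. The log2 ratio of CD8 T cells to regulatory T cells was 1.25 lower in B2m-null than in control tumours under isotype, with overlapping mice, an exact permutation p of 0.0159 and an adjusted p of 0.0595. Under CD40 the share of T cells without Cd8 UMIs was higher in all 4 B2m-null mice than in both control mice, at an exact permutation p of 0.133, the smallest that 4 against 2 mice allow. The differences of the CD40 effects between tumour types had exact permutation p-values of 0.721, 0.822 and 0.828 in the 3 measures. That test shuffled treatment labels within each tumour type. It assumes no CD40 effect in either, so it cannot decide whether the effects were equal.

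Members were next set against the CD4 T cells of the same mice, barcodes with a Cd4 UMI, no Foxp3 UMI and the other limits of the rule, over the 9 mice with 20 or more of each. Counts were summed per mouse and tested with edgeR's quasi-likelihood test with the mouse as a block and Benjamini-Hochberg adjustment, and fold changes are log2. No result is drawn from the genes of the gate. The test called 122 genes of 5365 (2.27% of all tested), 49 higher in members (0.913%) and 73 lower (1.36%), gate genes included. Without B2m-null isotype replicate 2 it called 42 (9 higher, 33 lower), and without control isotype replicate 2 it called 52 (12 and 40). Izumo1r, the folate receptor family member FR4 found on regulatory T cells, ranged over mice from 55.8 to 166 CPM in members (median 101) and from 10.7 to 60.6 in Foxp3-negative CD4 T cells (median 41.0). It was higher in 9 of 9 mice, by 1.5005 (SE 0.23, adjusted p = 0.000165). Il2ra ranged from 245 to 550 CPM in members and 82.0 to 292 in the comparison cells, higher in 9 of 9 mice by 1.04 (SE 0.17, adjusted p = 0.00119). The costimulatory receptor gene Tnfrsf9 (4-1BB) had medians of 474 and 251 CPM and was higher in all 9 mice by 1.04 (adjusted p = 0.000387). Ctla4 had medians of 1100 and 567 CPM and was higher in all 9 by 0.99 (adjusted p = 0.0176). These 4 genes had the largest called rises among those seen in every mouse.

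Among the genes called lower in members were Tnfsf8 and Cd40lg. Tnfsf8, the ligand of CD30, had a median of 0 CPM in members and 55.9 in Foxp3-negative CD4 T cells, and Cd40lg medians of 0 and 34.9. Both were lower in 9 of 9 mice, by 4.35 and 2.68 on the log2 scale (adjusted p = 1.05e-08 and 0.0166). Tcf7, a transcription factor of naive and memory T cells, ranged from 15.5 to 50.2 CPM in members and from 60.7 to 168 in the comparison cells, with no overlap between the sets, and fell by 2.06 (SE 0.24, adjusted p = 1.15e-06). Il18rap, a chain of the IL-18 receptor, fell by 1.84, and the chemokine gene Ccl1 by 7.12, though by 2.01 at an adjusted p of 0.134 among cells with few other-cell UMIs. Also called lower in every mouse were Nrgn, Ms4a4b, Cd226, Pde7a and Evl, by 1.30 to 2.41. Called genes lower in most mice were Ifng (1.91 lower, in 8 of 9 mice), the chemokine receptor gene Cxcr6 (1.81 lower, 8 of 9), the integrin chain gene Itgb1 (1.05 lower, 9 of 9) and the survival gene Bcl2 (1.09 lower, 9 of 9).

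All 24 tested genes of the cell cycle list lay above 0, 8 of them were called, and their median was 0.58 against -0.01 over all genes tested. Mki67, a marker of dividing cells, was higher by 0.87 (adjusted p = 0.000645), Top2a by 0.92 (adjusted p = 0.0442) and Bub1 by 1.41 (adjusted p = 0.00928). Of the suppression and identity list, 13 of 16 tested genes were above 0 (median 0.56) and 3 were called, Izumo1r, Il2ra and Ctla4. Ikzf2 was higher in 9 of 9 mice by 1.29 without passing the test (adjusted p = 0.179). Tnfrsf4 (OX40) differed by 0.83 at an adjusted p of 0.0588. The list of activated tumour regulatory T cells had 13 of 19 above 0 (median 0.31) and 3 called higher: Tnfrsf9, Klrg1 by 1.00 and Icos by 0.51. Resting genes leaned the other way, with 3 of 11 above 0 (median -0.40) and Tcf7, Klf2 and Il7r called lower. So did the Th1-type list, with 4 of 13 above 0 (median -0.39) and Ifng, Il18rap and Cxcr6 called lower, and the T cell receptor response list, with 4 of 16 above 0 (median -0.40) and Egr1 and Fosb called lower. Interferon-stimulated genes had 21 of 29 above 0 (median 0.20), with Igtp among those called higher.

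Restricting both cell sets to barcodes with few other-cell UMIs, over 7 pools, called 206 of 5530 genes (3.73% of all tested). Of the 122 genes called over mice, gate genes included, 120 were tested there, 118 had the same sign and 74 were called. Izumo1r rose by 2.09, Tnfrsf9 by 1.60 and Ctla4 by 1.24, and Il2ra, at 1.06, had an adjusted p of 0.132. The suppression and identity list then had 16 of 17 above 0, a median of 0.87 and 8 called higher, which added the anti-inflammatory cytokine gene Il10 (1.74), Tnfrsf4 (0.92), Tnfrsf18 (GITR, 0.72), Fgl2 (0.78), Ikzf4 and Lrrc32. The activated list had 15 of 18 above 0 (median 0.41), with 7 called higher and 2 lower, Id2 (-0.67) and the IL-33 receptor gene Il1rl1 (-1.29). Its largest value was that of Itgae, the CD103 integrin chain, higher by 2.62 (adjusted p = 7.71e-05), against 0.65 over mice with all cells (adjusted p = 0.699). The cell cycle list had 23 of 25 above 0, a median of 0.42 and 4 called. The resting list had 2 of 10 above 0 and a median of -0.52. Of its called genes, Foxo1, Satb1 and Tcf7, 1 was higher and 2 were lower, and Klf2 and Il7r were not called. The comparison cells held an Ikzf2 UMI in 43.8% to 57.5% of barcodes by pool under isotype and 14.6% to 25.7% under CD40. How many of them were regulatory T cells without a captured Foxp3 transcript was not tested.

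**Figure D3:**
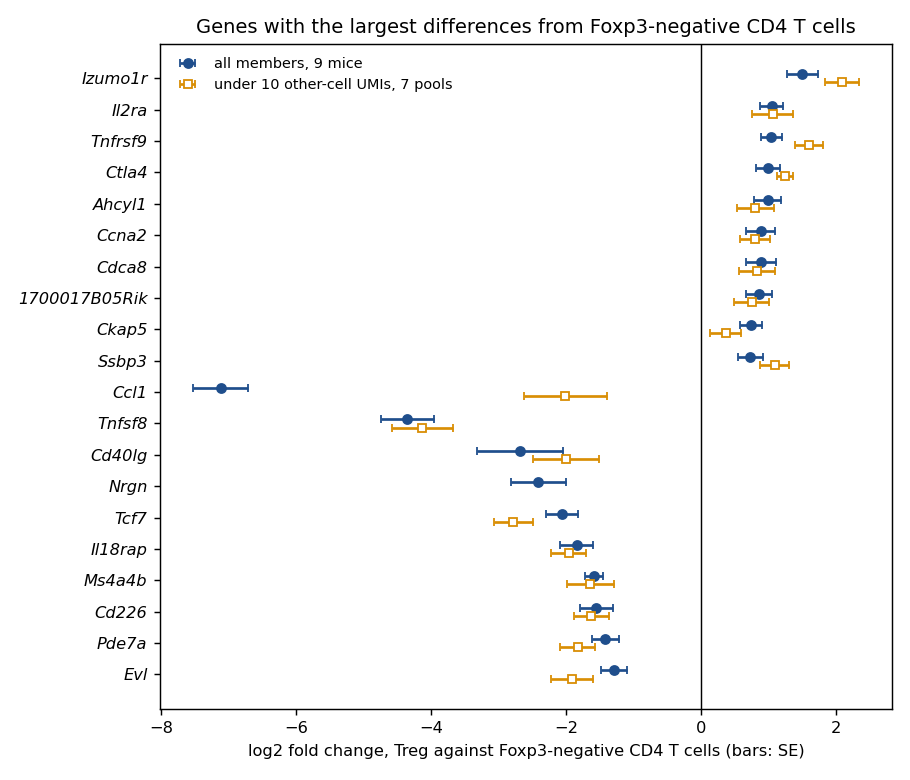
Log2 fold change (with SE) between members and Foxp3-negative CD4 T cells for the 20 genes with the largest called differences seen in all 9 mice, for all members and for members with few other-cell UMIs. Every gene measured in both keeps its side of 0, and Ccl1 moves most, from -7.12 to -2.01.

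Within members, expression was compared between treatments and tumour types on counts summed per mouse, for mice with at least 20 members, of which the groups held 5, 1, 3 and 1 in the order given above. A CD40 arm of 1 mouse has no spread of its own and was taken to vary like the other groups. These comparisons share mice with each other, so their values are given side by side and not as separate support. Members with few other-cell UMIs were compared by pool, 2, 1, 2 and 2 in the same order.

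In control tumours, members held more Hcst under CD40, with all members and with few other-cell UMIs. MHC class II transcripts fell with all members, as did the myeloid marker sum (7579 CPM under isotype and 2336 under CD40). With few other-cell UMIs, H2-Eb1 and H2-Aa stood at 0.98 (SE 2.65) and 0.47 (SE 3.07), not called. They held 6 counts against 21 and 5 against 25, too few to give a direction. The test called 39 of 6354 genes (0.614% of all tested), 13 higher (0.205%) and 26 lower (0.409%), around a median of -0.35 over all genes, so smaller falls are part of that shift. The count was 17 without control isotype replicate 1, 68 without its replicate 2, and 88 and 90 without B2m-null isotype replicates 1 and 2, which share the estimate of spread. With size factors from DESeq2's method the median was -0.26 and the calls were 18 higher and 19 lower. Hcst encodes DAP10, a signalling adaptor of NKG2D. It stood at 609 CPM in the control CD40 mouse and at 117, 79.7, 119, 109 and 119 in the isotype mice, which is above all 5 (2.49, SE 0.37, adjusted p = 0.000224). With few other-cell UMIs it was 922 CPM in the CD40 pool against 187 and 181 (2.32, SE 0.38, adjusted p = 0.000934). Hcst moved the same way in macrophages, from 28.1 and 35.2 to 106 CPM, and in CD8 T cells, from 141 and 208 to 1047, and the part of these cells in the members' value was not tested. The call held under all 33 alternatives run for it. All of them used the 1 control CD40 pool, so in control tumours the treatment and that pool cannot be told apart.

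Ccl5, a chemokine made by activated T cells, was 2581 CPM in the control CD40 mouse and 611, 490, 667, 466 and 900 in the isotype mice. The difference of 2.04 did not pass (adjusted p = 0.100), but among members with few other-cell UMIs the levels were 3368 CPM against 525 and 648, and the rise of 2.51 did (SE 0.35, adjusted p = 4.53e-05; 2.41, adjusted p = 0.0760, over mice with at least 10 such members). There 12 of 3740 genes were called (0.321% of all tested), 9 higher and 3 lower, and between 4, without B2m-null CD40 pool 1, and 61, without B2m-null isotype pool 1, when single pools were left out. Also called higher were Crip1 (1.66, adjusted p = 0.0199), the immediate early gene Egr1 (2.75, adjusted p = 0.0225, but 0.57, adjusted p = 0.902, over mice with all members and 1.54, adjusted p = 0.583, by pool), the stress-response gene Ppp1r15a, the calcium-binding protein gene S100a6 (1.53), Cox17 and the ribosomal protein genes Rpl37a and Rpl38. The histone gene Hist1h1b had 0 counts in the control CD40 pool against 63 and 75. Lower too were Ranbp1 and Gm42418. Over mice with all members Ppp1r15a, S100a6, Cox17, Hist1h1b and Gm42418 were not called (adjusted p = 0.100 to 0.459). Cox17 and Hist1h1b were called with all members by pool (adjusted p = 0.0433 and 0.00391) and over mice with at least 10 members (adjusted p = 0.00267 and 0.00305). Ccl5 was also abundant in CD8 T cells, at 10725 CPM in the control CD40 pool against 1405 and 2073 under isotype, and reached 332 CPM in macrophages. How much of the members' Ccl5 came from other cells was not tested.

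Of the 39 calls over mice, 5 were called with the same sign among members with few other-cell UMIs, by pool, where 34 of 38 tested kept the sign. Over mice with at least 10 such members 31 were tested, 30 kept the sign and 11 were called. Of the 10 falls with the largest values, 7 were of genes with no count in the CD40 mouse, whose members held 37483 UMIs in all, so only lower bounds for that mouse can be given. Against 3 counts, Tomm5 was at least 2.70-fold lower, the lysosomal protease gene Ctsh 2.45-fold, H2-DMb1 2.39-fold, U2af1 2.37-fold, Ptpn1 2.27-fold, the ribonucleotide reductase gene Rrm1 2.19-fold and Eif5b 2.02-fold. The other control CD40 mouse, with 14 members and 32117 UMIs, held 7, 4, 1, 6, 1, 5 and 2 counts in the same order. Over mice with at least 10 members, which include it, Tomm5, Ctsh, U2af1 and Rrm1 were not called, and H2-DMb1, Ptpn1 and Eif5b were. The whole CD40 pool held 2 to 8 counts of each, and by pool these 7 genes were 1.21 to 2.93 lower on the log2 scale with none called (adjusted p = 0.0539 to 0.318). The MHC class II gene H2-Eb1 had 1 count against 2357 (65.1-fold lower, 95% counting interval 11.7 to 2573), H2-Aa 3 against 2381 (21.9-fold, 7.49 to 106) and the antigen-processing gene Ifi30 1 against 769 (21.2-fold, 3.80 to 840). These intervals cover counting alone and leave out the spread between mice and between members. The other control CD40 mouse held 8, 5 and 7 counts of these genes. By pool these 3 were called too, at smaller log2 differences of -2.91, -3.11 and -2.44. Ifi30 stood at -0.29 and Ctsh at 0.04 with few other-cell UMIs. The part of myeloid transcripts in these falls was not tested. Ifit1 was called higher, with 35 of its 36 counts in 1 barcode. Ikzf2 was 2313 CPM in the CD40 mouse and 860 to 1287 in the isotype mice, and called higher by 1.05 (adjusted p = 0.0333), but among members with few other-cell UMIs the pools read 2553 against 2003 and 2094 (0.32, adjusted p = 0.784). The remaining called rises with the largest values were Rpl37a, Rpl38, Jund, Rpl41, Tmsb10, Crip1, mt-Co1 and Rps29, by 1.05 to 1.39. Of these, Jund, Rpl41, Tmsb10, mt-Co1 and Rps29 were not called by pool with few other-cell UMIs, at 0.72 to 1.36. Over mice with at least 10 such members all of these but mt-Co1 (adjusted p = 0.0817) were called, by 1.14 to 1.49. The chaperone gene Hsp90ab1 was called lower by 1.45, but was at -0.84 by pool (adjusted p = 0.284) and -0.61 with few other-cell UMIs (adjusted p = 0.597).

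In B2m-null tumours, members held more Ccl5 and Gzmb under CD40. Ccl5 was 3542 CPM in the CD40 mouse against 408, 289 and 678 (2.94, SE 0.43, adjusted p = 0.00509). Among members with few other-cell UMIs it was 1786 and 2727 CPM in the CD40 pools against 532 and 536, so both CD40 pools lay above both isotype pools (2.10, SE 0.32, adjusted p = 0.000449). CD8 T cells held 2258 and 12200 CPM of Ccl5 in the CD40 pools and 1408 and 2055 in the isotype pools, and macrophages 264 and 266 against 68.3 and 58.7. Gzmb, the cytotoxic protease granzyme B that regulatory T cells can also use for suppression, was 1114 CPM against 237, 416 and 228 (1.85, SE 0.37, adjusted p = 0.011), and by pool with few other-cell UMIs 579 and 1655 against 370 and 297 (1.89, SE 0.38, adjusted p = 0.0164). By pool with all members it was 315 and 1155 against 256 and 339, so the pools overlapped. CD8 T cells held 501 and 812 CPM of Gzmb under CD40 against 682 and 665, the higher value in the same pool 2 as the members' 1655, and macrophages had 14.6 CPM or less. The part of CD8 T cells, more numerous per member under CD40, in the members' Gzmb was not tested. In control tumours Gzmb was 316 CPM in the CD40 mouse and 341 to 662 in the isotype mice, and the difference of CD40 effects was 2.36 (adjusted p = 0.238). Without excluding members with other-cell UMIs, the pool as unit ended both calls, at 2.32 for Ccl5 (adjusted p = 0.233) and 1.34 for Gzmb (adjusted p = 0.473). Leaving out B2m-null CD40 pool 2 did so with few other-cell UMIs, at 1.74 for Ccl5 (adjusted p = 0.232) and 0.87 for Gzmb (adjusted p = 0.848); over all alternatives the adjusted p reached 0.233 for Ccl5 and 0.848 for Gzmb.

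The test called 157 of 6354 genes (2.47% of all tested), 119 higher (1.87%) and 38 lower (0.598%). The 10 called rises with the largest values, Saa3, Cxcl12, Col3a1, Dcn, Sfrp2, Mfap5, Col1a2, Rarres2, Cxcl14 and Postn, had all of their 40 to 348 counts in 1 barcode of the 33 members of that mouse. Most are known as fibroblast genes, and the values are those of that barcode. With the pool as the unit and all members, each of the 157 genes kept its sign and 60 were called. B2m-null CD40 pool 2 has 55 members and includes the 33 of that mouse, so the kept signs are no separate support. Of the 157 calls, 86 were tested by pool among members with few other-cell UMIs, 81 with the same sign and 4 called. Over mice with at least 10 such members 59 were tested, 54 had the same sign and 18 were called. By pool 7 of 3740 genes were called (0.187% of all tested), between 1, without B2m-null CD40 pool 2, and 40, without B2m-null isotype pool 2, when single pools were left out. They were Ccl5, Gzmb, the T cell receptor constant gene Trbc1 (1.74) and Saraf (1.70) higher, and Gm42418 (2.08), the chaperonin gene Cct6a (2.51) and the kinetochore motor gene Cenpe (1 count against 44) lower. Over mice with all members Cct6a (-0.81), Gm42418 (-1.27) and Trbc1 (1.24) were not called (adjusted p = 0.310, 0.427 and 0.0535). In the 1 B2m-null CD40 mouse with at least 20 members, which held 33, Cenpe had 0 counts among 111755 UMIs (at least 3.71-fold lower). So did Kctd12 (6.03-fold), Wdfy4 (4.29-fold) and the MHC class II transactivator Ciita (3.04-fold). These 4 were also called by pool, at 2.22 to 3.19 lower on the log2 scale. Most isotype counts of the last 3 lay in members with 10 or more other-cell UMIs: from 296, 194 and 137 counts in all, 16, 1 and 2 were left with few such UMIs, too few to test. Myeloid and dendritic cell marker sums were lower under CD40 too, as given above, and their part was not tested. Kmt5a, Kars, Nip7, Midn, Rbm28 and Atic had no count in that mouse either and were called there, but both CD40 pools together held 5 to 16 counts of each. By pool their log2 differences were -0.24 (Kars) to -1.59 (Atic), with none called (adjusted p = 0.154 to 0.872).

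Of the Th1-type list, 10 of 13 tested genes were above 0 in this comparison (median 1.13, against 2920 of 6354 and -0.08 over all genes) and 3 were called: Ccl5, Cxcr3 (1.96, adjusted p = 0.0107) and Cxcr6 (1.99). Cxcr3, the receptor for interferon-induced chemokines, was 229 CPM in the CD40 mouse against 19.0, 64.7 and 64.5, but by pool with few other-cell UMIs it was 126 and 281 against 23.1 and 126, so the groups met (1.12, adjusted p = 0.414). Cxcr6 stood at 0.66 there (edgeR adjusted p = 0.726), and at -2.18 with B2m-null CD40 pool 2 left out. Igtp, Iigp1 and Ifi27l2a were the called members of the interferon-stimulated list, by 1.59, 1.46 and 1.19, within 22 of 29 above 0 (median 0.49). Igtp and Iigp1 turned to -0.15 and -7.01 with few other-cell UMIs and B2m-null CD40 pool 2 left out. With few other-cell UMIs the list had 20 of 23 above 0 (median 0.37) and none called by pool, though Igtp was over mice with at least 10 such members (1.34, adjusted p = 0.0426), and the Th1-type list 10 of 11 (median 1.12) with Ccl5 alone called. Id3 was called with 15 of its 17 counts in 1 barcode, and Ltb and Dusp5 were called higher by 1.05 and 1.38, but not by pool (0.93 and 0.67, adjusted p = 0.0709 and 0.240) or with few other-cell UMIs by pool (0.70 and 1.18, adjusted p = 0.425 and 0.149). The suppression and identity list had 11 of 17 above 0 (median 0.35) with none called, and the activated list 9 of 19 (median -0.09) with Gzmb alone called.

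Most cell cycle genes lay below 0 under CD40 in both tumour types, and 1 passed the test in each. In control tumours 23 of 24 were below 0, with a median of -1.18 (all genes -0.35), 11 lower at an unadjusted p under 0.05 (567 of all 6354), and Rrm1 called. In B2m-null tumours 22 of 24 were below 0, with a median of -1.11, 9 lower at an unadjusted p under 0.05 (453 of 6354), and Cenpf called, with 3 counts against 215 (6.54-fold lower, 95% counting interval 2.21 to 32.0). That interval too covers counting alone. Among members with few other-cell UMIs the medians were -1.47 (23 of 24 below 0) and -0.40 (22 of 24), with none called. Top2a with few other-cell UMIs read 230 CPM in the control CD40 pool against 525 and 777, but 654 and 187 in the B2m-null CD40 pools against 671 and 691. The 2 B2m-null CD40 pools thus differed: pool 1 lay beside the isotype pools and pool 2 below them.

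The share of cycling members, those with a UMI of Mki67, Top2a, Cdk1, Birc5 or Ube2c after thinning to 1000 UMIs, followed the same pattern. By pool it was 37.5% and 36.9% in control isotype, 5.88% in control CD40 (2 of 34 members), 41.3% and 39.0% in B2m-null isotype, and 43.5% and 18.5% in B2m-null CD40. At full depth the pools read 50.7% and 54.9%, 14.6%, 45.3% and 63.1%, and 51.7% and 36.4%. With few other-cell UMIs and thinning they were 39.2% and 41.3%, 7.14%, 66.7% and 41.7%, and 46.7% and 18.6%. Over mice with at least 20 such members, B2m-null isotype had 40.1% ± 1.41 (SD, n = 3) against 15.6% in the 1 CD40 mouse, where an exact permutation test cannot go below 0.5, its value here. Control and B2m-null isotype mice did not differ detectably, at 38.8% ± 6.44 (n = 5) and 40.1% (exact permutation p = 0.786). No control CD40 mouse had 20 such members.

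**Figure D4:**
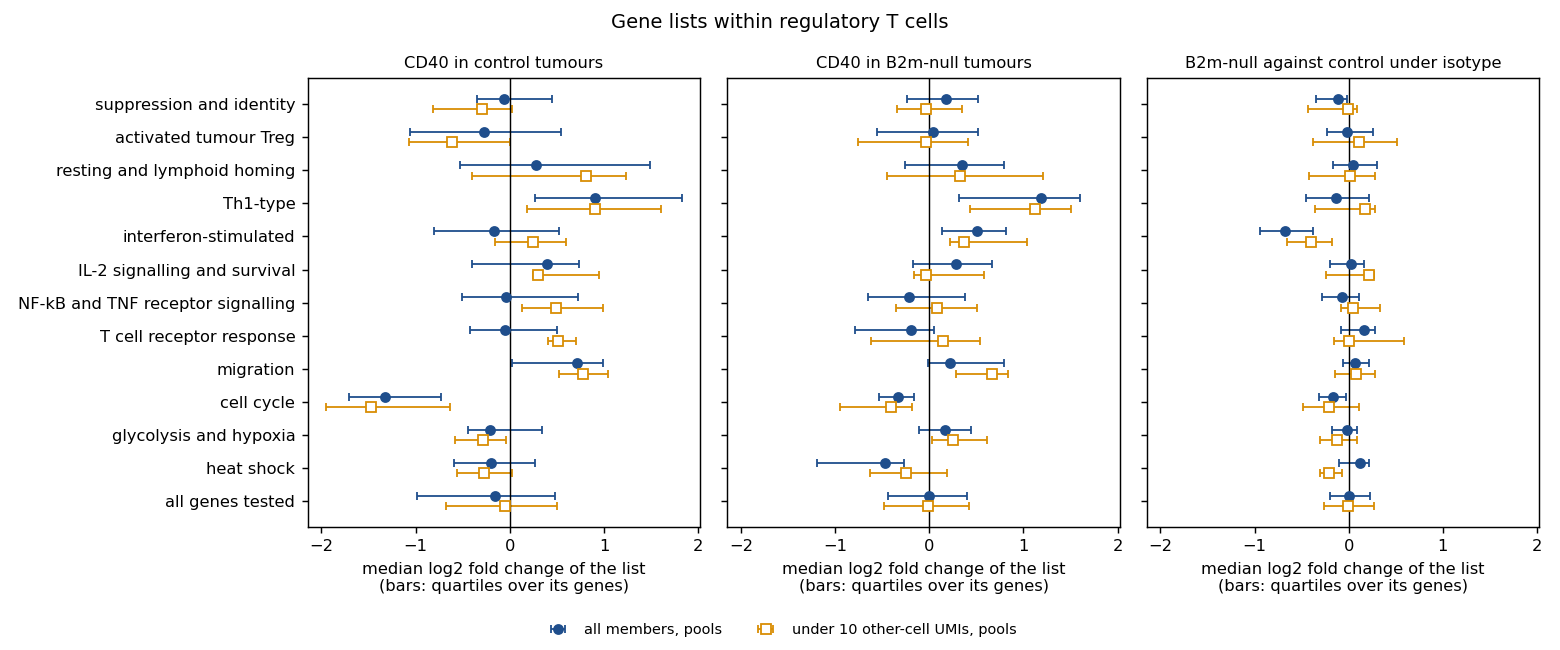
Median log2 fold change (with quartiles) of each gene list in members, by pool, for both CD40 comparisons and the genotype comparison under isotype, for all members and for members with few other-cell UMIs. Cell cycle medians lie below 0 and Th1-type medians above 0 in both CD40 comparisons, and the interferon-stimulated median lies below 0 in the genotype comparison.

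For the other lists in control tumours under CD40, medians among members with few other-cell UMIs (against -0.05 over all genes) were 0.81 for resting genes (6 of 9 above 0), 0.91 for Th1-type genes (8 of 11), 0.78 for migration genes (13 of 15), 0.51 for T cell receptor response genes (10 of 13), 0.49 for NF-kB genes (11 of 15), 0.30 for IL-2 signalling genes (11 of 13), 0.24 for interferon-stimulated genes (14 of 23), -0.27 for heat shock genes (3 of 10), -0.29 for glycolysis genes (3 of 14), -0.30 for suppression and identity genes (6 of 16) and -0.62 for activated genes (5 of 18). Only Ccl5 and Egr1 were called among all of these. In B2m-null tumours the same lists had medians between -0.25, for heat shock genes, and 0.66, for migration genes, apart from the Th1-type list given above. Of the list of other helper programmes, 2 genes were tested. Levels of Ctla4 with few other-cell UMIs were 1744 and 2621 CPM in control isotype, 1347 in control CD40, 2222 and 2303 in B2m-null isotype and 2491 and 2009 in B2m-null CD40, with no call. Tnfrsf9 stood at 712 and 764, 744, 579 and 749, and 1031 and 1322 CPM, so both B2m-null CD40 pools were above the other 5, without a call.

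**Figure D5:**
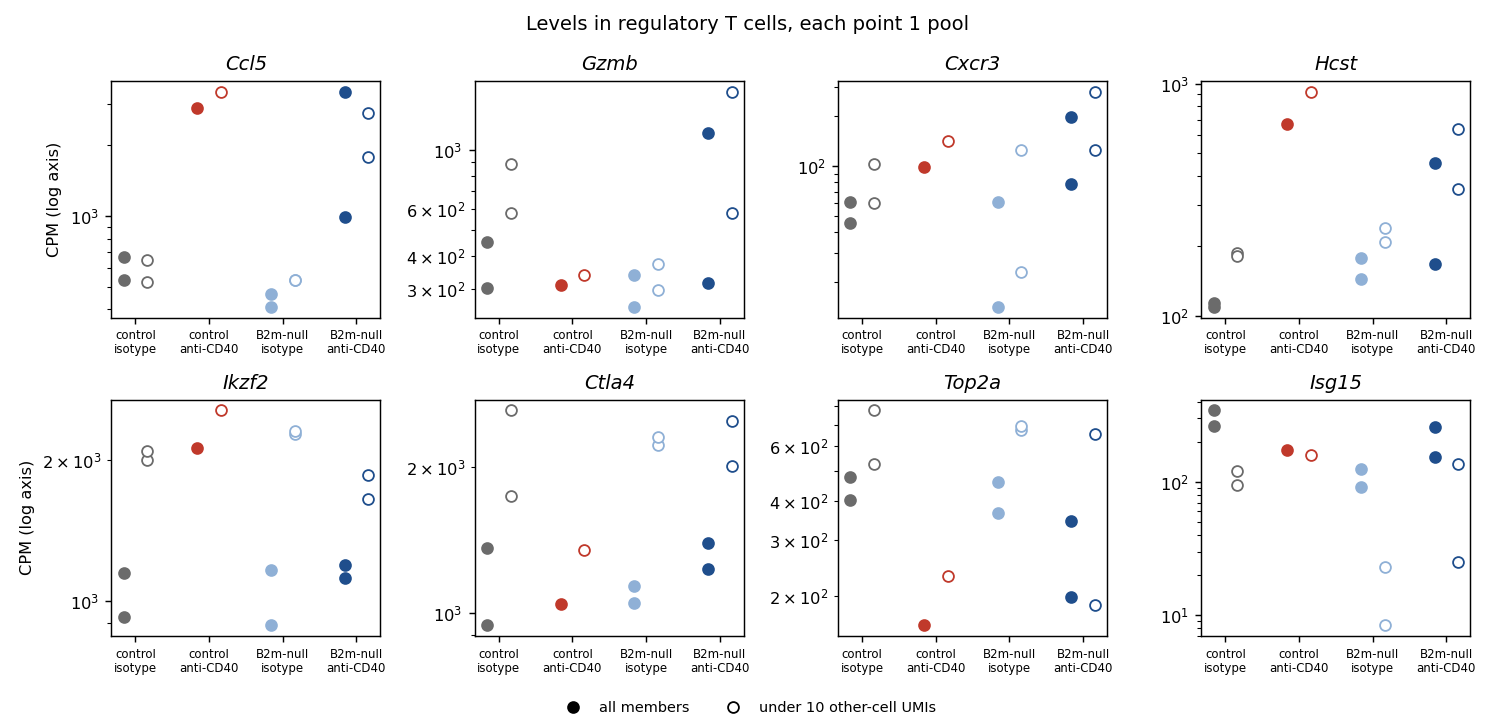
CPM of Ccl5, Gzmb, Cxcr3, Hcst, Ikzf2, Ctla4, Top2a and Isg15 in members, by pool (log axis), for all members and for members with few other-cell UMIs. Ccl5 is higher in each of the 3 CD40 pools than in each isotype pool, at 1786 to 3368 against 525 to 648 CPM with few other-cell UMIs, where Ikzf2 lies between 1655 and 2553 CPM in all 7 pools.

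Tumour genotype under isotype was compared with more mice, 5 against 3. Interferon-stimulated genes lay lower in members from B2m-null tumours: 27 of 29 were below 0, the median was -0.75 against 0.00 over all genes, 20 were lower at an unadjusted p under 0.05 (248 of all 6354), and 2 were called within 11 calls of 6354 genes (0.173% of all tested), 5 higher (0.0787%) and 6 lower (0.0944%). Zbp1, a nucleic acid sensor, was 139, 299, 203, 162 and 222 CPM in control mice and 104, 106 and 69.5 in B2m-null mice, which lay below all 5 (fell by 1.16, SE 0.24, adjusted p = 0.0278). Ifi47, an interferon-induced GTPase, was 222, 283, 153, 218 and 250 against 114, 129 and 62.1 CPM, again without overlap (fell by 1.16, SE 0.23, adjusted p = 0.0278). The 11 calls became 2 without B2m-null isotype pool 2 mouse 2 or without control isotype pool 2 mouse 2, 3 to 6 without control isotype pool 1 mouse 2, pool 1 mouse 3, pool 2 mouse 1 or either control isotype replicate, 26 without B2m-null isotype pool 1 mouse 1 and 43 without pool 2 mouse 1. Without B2m-null isotype pool 2 mouse 2 the adjusted p was 0.409 for Zbp1 and 0.435 for Ifi47, and by pool Zbp1 was called (adjusted p = 0.0258) and Ifi47 was not (adjusted p = 0.0831). Over all alternatives the adjusted p reached 1.00 for both. Isg15 was 161, 510, 346, 242 and 228 against 104, 177 and 67.0 CPM, which overlapped.

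Macrophages of the same pools also held less Isg15 and Zbp1 in B2m-null tumours. Their Isg15 was at 136 and 118 CPM against 400 and 251, and Zbp1 at 69.1 and 74.8 against 187 and 131. CD8 T cells had Zbp1 at 80.7 and 83.6 against 126 and 113 CPM. The list as a whole was not compared in these other cells. Among members with few other-cell UMIs the interferon-stimulated list had 20 of 23 below 0 and a median of -0.40, with none called. There Zbp1 was 23.1 and 87.9 CPM against 157 and 164, both B2m-null pools below both control pools (a difference of -1.09, adjusted p = 0.995). Ifi47, at 232 and 163 against 187 and 242, overlapped (a difference of -0.27). Fgl2, a secreted suppressive molecule of regulatory T cells, was 217, 251, 370, 270 and 316 against 85.5, 181 and 127 CPM (fell by 0.98, SE 0.20, adjusted p = 0.0321; -0.78 with few other-cell UMIs and -0.66 by pool, neither called). The purine enzyme gene Pnp and Mxd1 were called lower by 1.09 and 0.94, and Tppp3 with 4 counts against 44. Pnp was at -0.77 by pool and -0.11 with few other-cell UMIs, and Mxd1 at -0.82 and -1.07, none of them called. Called higher were Il4i1 by 1.33, Tbc1d4 by 1.20, Atp5k by 1.06, Rpl37a by 0.62, and Cxcl3, with 35 of its 72 counts in 1 barcode. By pool 2 of the 11 calls held, Zbp1 and Cxcl3, and Il4i1, Tbc1d4, Atp5k and Rpl37a did not (adjusted p = 0.212 to 0.734, with Tbc1d4 at 0.75). None of the 8 tested with few other-cell UMIs was called. By pool the B2m-null and control members held 112 and 50 counts of Il4i1, of which 6 and 0 were in members with few other-cell UMIs, and 349 and 202 of Tbc1d4, of which 9 and 4 were. With few other-cell UMIs the test called 1 of 3740 genes (0.0267% of all tested), Nrn1, at 185 and 188 CPM in the B2m-null pools against 30.2 and 34.5 (2.49 higher, SE 0.47, adjusted p = 0.0179). Over mice with all members Nrn1 was 38.0, 23.7 and 121.6 CPM in B2m-null and up to 47.8 in control mice, which overlapped (1.503, adjusted p = 0.687), and by pool it was not called (1.43, adjusted p = 0.166).

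Under CD40, members from B2m-null tumours differed from those of control tumours in 23 of 6354 genes (0.362% of all tested), 22 higher (0.346%) and 1 lower (0.0157%). This sets 1 mouse against 1, with the spread taken from the isotype mice, so it has no replicate check of its own. With mice of at least 10 members 11 of the 23 were tested and 3 called, and by pool 1 was called. The largest were again the fibroblast genes of 1 barcode, such as Col3a1 (at least 38.9-fold) and Col1a1 (24.0-fold), and the 1 gene called lower, Ifit1, had 2 counts against 36. The count was 15 without control isotype pool 1 mouse 2 and 40 and 56 without B2m-null isotype replicates 1 and 2. With few other-cell UMIs none of 3740 genes was called (111 at an unadjusted p under 0.05 lower and 135 higher), and DESeq2 also called 0, while mice with at least 10 such members gave 7 calls of 1600. The CD40 effects differed between tumour types for 9 of 6354 genes (0.142% of all tested), 7 upward (0.11%) and 2 downward (0.0315%), and for none by pool among members with few other-cell UMIs (159 at an unadjusted p under 0.05 one way and 123 the other), where DESeq2 called 7 and mice with at least 10 such members gave 24 of 1600. The 9 became 2 without control isotype replicate 1, 4 without its pool 1 mouse 2, and 28 and 54 without B2m-null isotype replicates 1 and 2. The CD40 comparisons could miss most moderate changes. In counts simulated at these depths, a 2-fold change was recovered for 0% of changed genes in control tumours and 0.5% in B2m-null tumours. Between genotypes under isotype it was recovered for 45.5%. A 4-fold change was recovered for 20%, 49% and 91% in the same order, with 1, 2 and 21 false calls.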

How the data were processed

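Droplet single-cell RNA was measured with the 10x 3' version 3 kit, per the labels' protocols. The authors deposited raw UMI counts per gene and barcode, with hashtag counts in the same files, per the file headers. They used Cell Ranger 3.0.0, bcl2fastq 2.20.0.422 and build mm10, per the submitters' processing notes. The counts were not normalized, and no coordinate is used here. Kept barcodes held at least 200 genes and at most 10% mitochondrial UMIs.

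Hashtags stand for mice. A Gaussian mixture gave barcodes of 20 or more hashtag counts to a hashtag where its posterior reached 0.9, and those with a second hashtag over 2.5 SD above background were called doublets (no other doublet caller was run). On simulated hashtags, with a signal far above background, 99.96% of single barcodes were assigned rightly and 98.2% of doublets were marked. In the real lanes 25.9% to 90.7% of barcodes were given a mouse, so the simulated figures do not give the accuracy there. Mice in a pool share a lane, so p-values over mice leave out the spread between pools. The labels number the pools as replicates. Hashtag doublets and unassigned members enter pools and not mice.

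Shares were compared by two-sided exact permutation tests over mice, with Benjamini-Hochberg adjustment over 15 tests. Counts were summed per mouse over members (at least 20) and tested with edgeR 4.0.16 in R 4.3.3 (quasi-likelihood, TMM, filterByExpr, adjusted p under 0.05 over all genes tested). CPM are counts scaled to 1000000, on edgeR's normalized library sizes or, for other cell types and marker sums, on plain totals. The CD8 ratio had 0.5 added to both counts on the log2 scale. Named genes were the 10 largest called changes each way with at least 20 counts in the higher group and no overlap of mice, or, against CD4 T cells, those changed one way in every mouse, plus members of 13 lists and the 4 label markers. Genes outside that rule, such as the 20 calls with few other-cell UMIs, were named after their values were seen. A few items, among them the share of resting members, are not reported here. Alternatives were the pool as unit, thinning, other gates, filters and size factors, DESeq2 1.42.0, and leaving out mice, pools or lanes. The members, lists and tests were chosen with earlier results of these data known.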

Additional observations from a re-analysis of the deposited data

Results flagged for a closer look

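Of 80 groups of 4 or 5 mice, 5 had a mouse far from the rest, and chance gives about 1 in 20. All 5 were gene levels in control isotype, the only group with 4 or more mice for genes. Col1a2 was 3.99 CPM in pool 1 mouse 2 and 0 in the others, and Rarres2 and Saa3 were each 3.12 CPM in pool 2 mouse 2 and 0 in the others. Each of these values was 1 UMI, which is enough to set a mouse apart when the others are at 0. Hcst was 79.7 CPM in pool 1 mouse 2 against 109 to 119, and Ltb was 934 CPM in pool 2 mouse 2 against 474 to 606.

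The CD40 effect differed between tumour types (B2m-null minus control, log2, edgeR with Benjamini-Hochberg adjustment, 1 CD40 mouse per tumour type) for the following genes. Col3a1 differed by 14.20 (adjusted p = 0.00458), a fitted value that rests on 348 counts in 1 barcode against 0 counts in the control CD40 mouse and is no measured size. The metallothionein gene Mt1 differed by 5.01 (adjusted p = 0.00458), but by 1.93 with mice of at least 10 members, 1.85 by pool and 0.51 with few other-cell UMIs, none called. Also called were the MHC class II gene H2-Aa at 3.39 (adjusted p = 0.0122), the invariant chain gene Cd74 at 3.07 (adjusted p = 0.00779) and Tspo at 2.30 (adjusted p = 0.0354). The ribosomal protein genes Rpl41 and Rpl37a differed by -1.73 and -1.63 (adjusted p = 0.0122 for both). With the pool as the unit, Rpl37a alone of these 7 was called (-1.87, adjusted p = 0.0214). Among members with few other-cell UMIs none of the 6 tested by pool was called, and H2-Aa stood at -2.16 and Cd74 at -0.02. Over mice with at least 10 such members, Rpl41 (-2.10, adjusted p = 4.04e-05) and Rpl37a (-1.85, adjusted p = 9.75e-05) were called, and Cd74 stood at 1.89 (adjusted p = 0.0746).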

How the results depend on the processing

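All CD40 differences in shares and in the CD8 ratio kept their direction under every alternative run, and none passed the adjusted threshold. Some genotype and interaction values changed sign. The share of kept barcodes between genotypes under isotype (0.0368 points) was -0.140 by pool, -0.108 thinned, -0.0592 with a Foxp3 gate of 2 UMIs, -0.0669 with few other-cell UMIs, -0.166 with few other-cell UMIs by pool and -0.0937 by pool thinned, and ran from -0.206 (without control isotype replicate 1) to 0.215 (without B2m-null isotype replicate 1) when mice or lanes were left out. The share of T cells without Cd8 UMIs between genotypes was -0.0415 with a Foxp3 gate of 2. Its difference of CD40 effects (-1.77) was 1.76 by pool, 0.802 thinned, 1.35 with a Foxp3 gate of 2, 2.13 with few other-cell UMIs by pool and 0.384 by pool thinned, and ran from -4.07 (without control isotype replicate 2) to 1.69 (without control isotype replicate 1). The difference for the log2 CD8 ratio (-0.505) was 0.0426 by pool thinned and ran from -1.11 to 0.0998, without control CD40 mouse 1 or 2. The genotype difference in cycling members (1.28 points) ran from -0.737 to 3.27. The cause of these changes was not tested.

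Counts of called genes moved more. The order here is CD40 in control, CD40 in B2m-null, genotype under isotype, genotype under CD40 and the difference of CD40 effects, with main counts of 39, 157, 11, 23 and 9. Without a filter on low counts they were 105, 303, 61, 45 and 32. DESeq2 gave 67, 74, 15, 13 and 37, and size factors of the RLE kind gave 14 for the difference. By pool the last 2 were 3 and 2, and DESeq2 by pool gave 77, 3, 11 and 20 for the last 4. Mice with at least 10 members gave 123 for the first and 51 for the last, with DESeq2 111, 43 and 75 for the first and last 2, and thinned to 1000 UMIs 36, 2, 10 and 21 for the last 4. Thinning gave 33 for CD40 in B2m-null and 4 for genotype under isotype, and by pool 60, 3 and 2 for genotype under isotype and the counts on either side of it. A Foxp3 gate of 2 gave 36 for genotype under isotype. Among members with few other-cell UMIs the counts were 12, 7, 1, 0 and 0 by pool, with DESeq2 14, 7, 0 and 0 for all but the last, and thinned 9, 0 and 18 for CD40 in B2m-null, genotype under isotype and the difference. Over mice of at least 20 such members they were 22 for CD40 in B2m-null and 0 for genotype under isotype, and of at least 10, 47, 0, 7 and 24 for the last 4. Leaving out a mouse or lane, the 5 counts ran from 17 to 90, 139 to 169, 2 to 43, 15 to 56 and 2 to 54, with the lowest without control isotype replicate 1 for the first and last and without B2m-null isotype pool 2 mouse 2 for genotype under isotype, and the highest without B2m-null isotype replicate 2 for the first and last 2 and without B2m-null isotype pool 2 mouse 1 for genotype under isotype. Leaving out a pool among members with few other-cell UMIs, they ran from 4 to 61, 1 to 40, 0 to 14, 0 to 15 and 0 to 35, with the lowest without either B2m-null CD40 pool or control isotype pool 1 and the highest without either B2m-null isotype pool. Against CD4 T cells (122) the counts were 68 thinned, 194 without a filter and 206 with few other-cell UMIs by pool, and ran from 42, without B2m-null isotype replicate 2, to 174, without control isotype replicate 1, with 52 without control isotype replicate 2.

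Lanes of equal replicate number share only the number (correlations of 0.0327, 0.0618 and 0.0263 between groups). With the replicate block the counts were 163 for CD40 in B2m-null tumours and 16 for genotype under isotype, and 250 and 48 by pool.

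Named genes that changed sign did so among members with few other-cell UMIs or by pool, given here with the range over settings that left out a mouse, pool or lane. Under CD40 in control tumours Ctsh was 0.037 (-8.91 to 0.53), H2-Aa 0.47 (-4.88 to 0.76) and H2-Eb1 0.98 (-6.58 to 1.42). Under CD40 in B2m-null tumours, leaving out B2m-null CD40 pool 2 gave 0.064 for Atic (lowest -7.12), 0.16 for Kars (lowest -7.38), -2.18 for Cxcr6 (highest 2.34), -0.15 for Igtp (highest 3.43) and -7.01 for Iigp1 (highest 1.89). Between genotypes under isotype Ifi47 was 0.39 thinned by pool, and ran from -1.57 to 0.15. In the difference of CD40 effects H2-Aa was -2.16 (-4.14 to 3.56), Cd74 -0.025, with DESeq2 -0.39 and by pool thinned -0.12 (-1.20 to 3.26), and Mt1 -1.04 and -0.58 thinned by pool with few other-cell UMIs and with all members.

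The alternatives with few other-cell UMIs and the combined settings were chosen after the data had been seen. The Foxp3 gate of 2, the C1q gate of 0 and thinning left no control CD40 mouse with 20 members, so those settings gave no value for it. Depth limits the CD40 groups most, where 1 mouse per tumour type, with 20 and 33 members, carried the gene comparisons over mice.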
